A study of Mus musculus with 20 samples.

Results

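Secretory granules are the dense vesicles in which neurons and endocrine cells store peptide hormones, and the genes described here encode proteins that build those granules or turn prohormones into active peptides inside them. In the usual order of events, granins help to pack the prohormone, convertases cut it at pairs of basic residues, a carboxypeptidase trims the basic residues left at the new end, and an amidating enzyme finishes many of the peptides. In the hypothalamus this machinery makes oxytocin, vasopressin and the feeding and releasing peptides. The 10 genes were chosen by name for their known roles and not by a threshold on their values: Pcsk1, Pcsk2, Cpe, Pam, Chga, Chgb, Scg2, Scg3, Scg5 and Cadps2. All 10 were found among the 53801 genes of the deposited tables, and all 10 were among the 22181 genes with enough counts to test.

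The data are RNA counts from mouse hypothalamus in 20 libraries. KO mice, named MADIN in the series text, lack both Magel2 and Ndn, imprinted genes of the Prader-Willi region, and WT mice are C57BL/6J. KO_night and WT_night mice were killed 18 h after light on, and KO_day and WT_day mice 6 h after light on, with 5 libraries in each of the 4 groups and 32066289 to 48697647 counts per library. The 10 genes had between 2114 (Pcsk1) and 49490 (Cpe) counts in a library. Ages are not given in the labels, and the labels do not state whether each library is a separate animal, so the p-values measure the spread between these libraries. The genotype entry of the labels speaks of a knockdown, while the series text speaks of a double knockout.

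Several features of the libraries bear on every result. For 6 libraries (KO_night 1, 2 and 3, KO_day 1 and 2, and WT_night 1) the label's time entry names the other time of day than the title does, and the title was followed. Ndn had 0.248 to 1.01 CPM in the 10 KO libraries, against 239 to 346 CPM in 9 WT libraries and 31.0 CPM in the library labelled WT_day 3. Magel2 had 0 to 0.182 CPM in the KO libraries, against 15.6 to 19.5 CPM in the same 9 WT libraries and 2.15 CPM in the library labelled WT_day 3, which therefore goes against its label. The 10 genes of the hypothalamus marker list were all detected and summed to 66.3 to 81.9 CPM per library. Of the neuron list, 7 of 8 genes were tested, and Tubb3 was at 0 throughout. Pituitary markers summed to 785 CPM in WT_day 1 and to 269 CPM in KO_night 2, and were between 6.10 and 152 CPM in the other 18 libraries. In bulk tissue, fewer cells of a type and less RNA per cell cannot be told apart.

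The genes lie on 7 chromosomes and differ widely in length. In GRCm38 coordinates, Pcsk1 spans chr13:75089826-75134861, Pcsk2 chr2:143546156-143816285, Scg5 chr2:113776362-113829121, Cpe chr8:64592542-64693054 and Pam chr1:97795114-98095646. Chga spans chr12:102554969-102565028, Chgb chr2:132781278-132795079, Scg2 chr1:79434669-79440120, Scg3 chr9:75643189-75684056 and Cadps2 chr6:23262773-23839421. The granin genes Scg2, Chga and Chgb are short, at 5.45, 10.1 and 13.8 kb, and the others run from 40.9 kb for Scg3 to 577 kb for Cadps2. Length is given because the difference between the genotypes at night followed it.

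RefSeq promoter sequence (GRCm38.p6) was at hand for 9 of the 10 genes, Cpe being the exception. The last 150 bases before the RefSeq start are shown for Scg2, Pcsk1, Chgb and Chga, because these were the 4 of the 9 that held either marked element. Genes that held neither element, Scg3 and Pam, also varied together with Scg2 and Pcsk1 between libraries, as Chgb did with Scg2. Capitals mark TGACGTCA, a palindrome known as the cAMP response element, and in Chga the related TGACGTAA.
Scg2 (chr1:79440027-79440176, minus strand): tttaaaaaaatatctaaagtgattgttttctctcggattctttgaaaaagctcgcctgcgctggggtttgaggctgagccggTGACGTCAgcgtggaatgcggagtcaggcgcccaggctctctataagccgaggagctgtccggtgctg
Pcsk1 (chr13:75089707-75089856, plus strand): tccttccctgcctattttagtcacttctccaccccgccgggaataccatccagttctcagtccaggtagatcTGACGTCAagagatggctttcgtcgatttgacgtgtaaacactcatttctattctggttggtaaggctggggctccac
Chgb (chr2:132781492-132781641, plus strand): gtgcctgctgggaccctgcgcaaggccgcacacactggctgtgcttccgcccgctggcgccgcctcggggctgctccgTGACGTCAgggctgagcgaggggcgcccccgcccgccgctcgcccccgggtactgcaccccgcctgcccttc
Chga (chr12:102554791-102554940, plus strand): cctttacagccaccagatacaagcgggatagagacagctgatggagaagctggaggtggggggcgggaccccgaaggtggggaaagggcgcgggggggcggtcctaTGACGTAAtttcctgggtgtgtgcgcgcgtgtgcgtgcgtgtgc
RefSeq starts differ from the gene spans given above, which are GENCODE's: 94 of the 150 bases in Scg2, the element among them, all 150 in Chgb, 31 in Pcsk1 and 0 in Chga lie inside the GENCODE span.
The element TGACGTCA began 68 bases before the RefSeq start in Scg2, 72 bases before it in Chgb and 78 bases before it in Pcsk1. The 250 bases upstream of the start held it on either strand in 1.55% of 32851 promoters. In Chga, TGACGTAA began 44 bases before the start, and it was present in 0.447% of promoters. These motifs were picked for marking after 8 had been searched in those 250 bases on both strands. The core TGACG, which both marked motifs contain, was in 7 of the 9 genes (all but Pam and Cadps2) and in 17.8% of promoters. GGGCGG was in 6 of the 9 genes (Pcsk2, Scg5, Pam, Chga, Chgb and Cadps2) and in 32.7% of promoters. CCAAT was in Pcsk2 and Scg3 (33.8% of promoters) and CACGTG was in Cadps2 (6.02%). TGAGTCA and TATAAA were in none of the 9 (4.46% and 12.4% of promoters). Such a match describes the letters of a window and not the binding of a factor, which these data do not measure.

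Measured in CPM, the counts per 1000000 of the library total after TMM scaling, the genes ranged from Pcsk1, at 67.4 ± 5.91 CPM, to Cpe, at 968 ± 78.5 CPM (SD, n = 20 libraries). Levels of different genes were compared only per kilobase. Per kb of exon the order was Cpe (371 CPM per kb), Scg2 (224), Scg5 (113), Scg3 (48.9), Chgb (42.1), Chga (38.0), Pam (35.5), Pcsk2 (25.5), Cadps2 (17.1) and Pcsk1 (12.0). The ranges of mean ± SD overlapped for the neighbours Chgb and Chga and for Chga and Pam, and for no other neighbours in that order. Per kb of the whole gene the order was led by Scg2 (103 CPM per kb), followed by Chga (10.4), Cpe (9.64), Chgb (8.36), Scg5 (3.36), Scg3 (3.28), Pcsk1 (1.50), Pam (1.40), Pcsk2 (0.746) and Cadps2 (0.283). On that scale Chga and Cpe, Cpe and Chgb, Scg5 and Scg3, and Pcsk1 and Pam overlapped. Both scales are given because the share of intronic reads in these counts was not measured.

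The genes also differed in how steady they were between libraries of the same group. Pam varied least, with a within-group SD of 0.039 on the log2 scale, and 1.62% of the 3961 genes with a mean of at least 50 CPM varied less. Scg5 (SD 0.049) and Pcsk2 (SD 0.053) followed, with 7.70% and 11.8% of those genes varying less. Chga varied most, with an SD of 0.14, and 87.8% of those genes varied less. Scg2 (0.11), Chgb (0.11), Pcsk1 (0.10), Cpe (0.10) and Cadps2 (0.10) lay above the median of 0.084 for those genes, and Scg3 (0.076) lay below it.

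**Figure D1:**
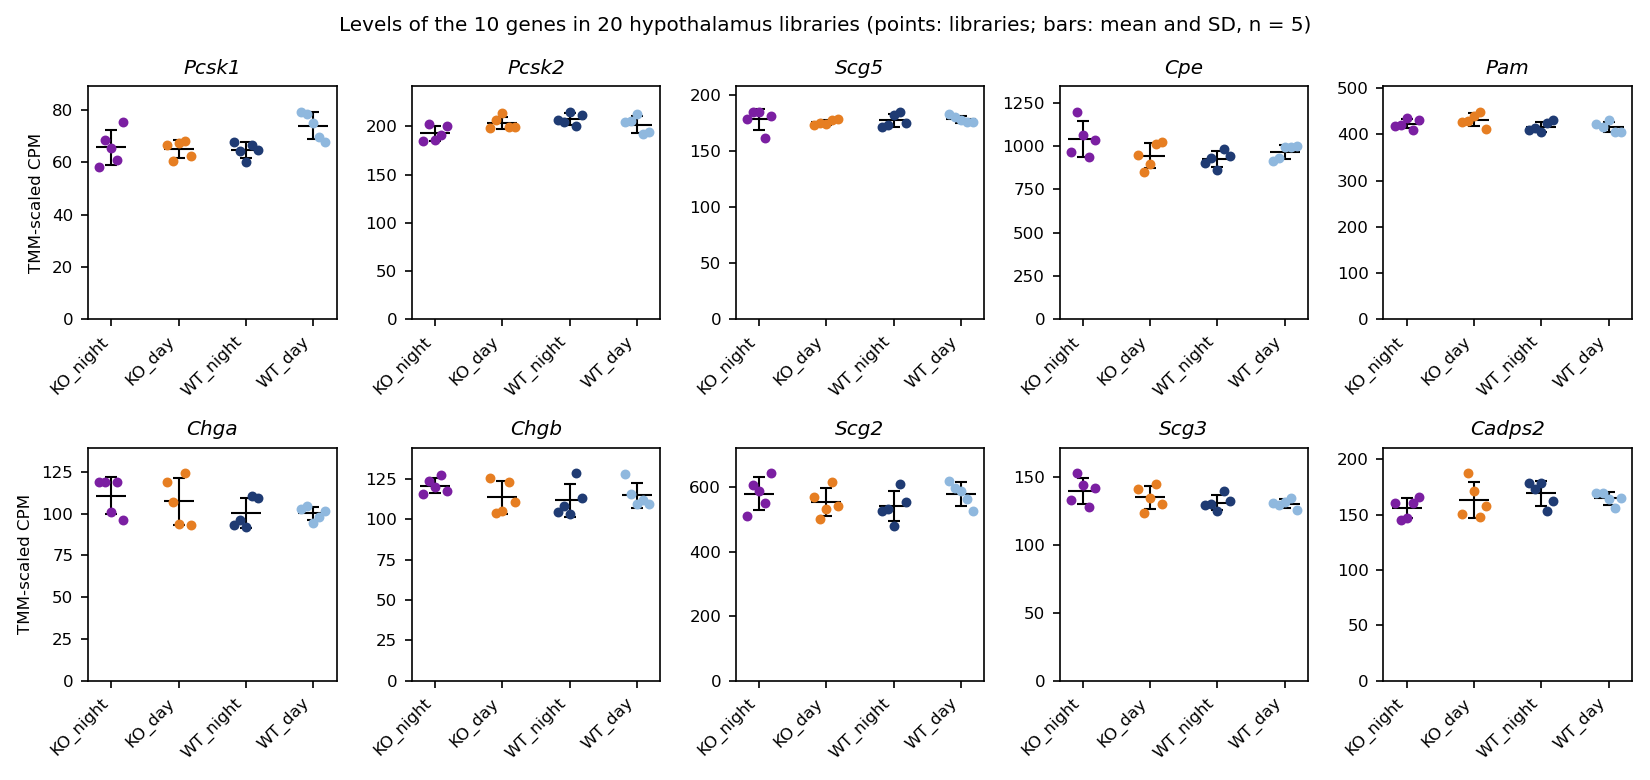
Level of each of the 10 genes in all 20 libraries, in TMM-scaled CPM on axes that start at 0, with the 5 libraries of KO_night, KO_day, WT_night and WT_day as points and the group mean and SD as bars. Of the 4 pairs of groups compared, WT_night and WT_day in Pcsk1 alone do not overlap, at 67.7 and 67.8 CPM, and 5.32% of all genes tested do not overlap between those groups. Pcsk1 is highest in WT_day (67.8 to 79.3 CPM) and Cpe in KO_night (938 to 1196 CPM).

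None of the 10 genes passed the test in any of the 6 comparisons. The test was edgeR's quasi-likelihood F-test fitted to all 22181 genes, with Benjamini-Hochberg adjustment over all of them and a threshold of 0.05. For KO against WT averaged over both times, 0 of 10 passed, against 1.32% of all tested genes, and 1 gene (Chga) had an unadjusted p under 0.05. For KO against WT by day, 0 of 10 passed, against 0.113% of all genes, with 1 gene (Pcsk1) under 0.05 unadjusted. At night 0 of 10 passed in edgeR, against 11.9% of all genes, with 2 genes (Cpe and Pcsk2) under 0.05 unadjusted, where 29.9% of all genes were. DESeq2 called those same 2 genes at night, Pcsk2 at an adjusted p of 0.0325 and Cpe at an adjusted p of 0.0402, where it called 19.4% of all genes to which it gave an adjusted p. It called 0 of 10 averaged over both times (6.32% of all genes), by day (1.24%), for night against day in KO (4.02%) and in WT (2.47%), and in the interaction (8.03%). For night against day 0 of 10 passed in KO, against 0.0721% of all genes, with 1 gene (Cpe) under 0.05 unadjusted. In WT 0 of 10 passed, against 0.275% of all genes, with 1 gene (Pcsk1) under 0.05 unadjusted. The interaction of genotype and time was passed by 0 of 10 genes and by 0% of all genes, and 2 of the 10 (Pcsk1 and Cpe) were under 0.05 unadjusted, where 22.1% of all genes were.

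The intervals of these changes were narrow, but they measure the spread between libraries under this fit alone. With the trend of each library with gene length removed, Pam (0.23), Cadps2 (0.16) and Pcsk2 (0.09) lay outside their night intervals. Those intervals ran from -0.06 to 0.10, -0.24 to 0.01 and -0.19 to -0.02 on the log2 scale. The other members lay inside theirs at night. At night the 95% intervals of the 10 genes lay between 0.846-fold and 1.24-fold of WT, by day between 0.806-fold and 1.20-fold, and averaged over both times between 0.888-fold and 1.18-fold. For night over day they lay between 0.877-fold and 1.21-fold in KO and between 0.801-fold and 1.12-fold in WT. The median log2 change of the 10 genes for KO minus WT was 0.06 at night (all genes 0.0051), -0.01 by day (all genes -0.0055) and 0.03 averaged over both times (all genes -0.0013). It was 0.03 for night minus day in KO (all genes 0.0016) and -0.0043 in WT (all genes 0.0049). The interaction had the widest intervals, between 0.824-fold and 1.31-fold, with a median log2 value of 0.04 (all genes 0.0031).

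**Figure D2:**
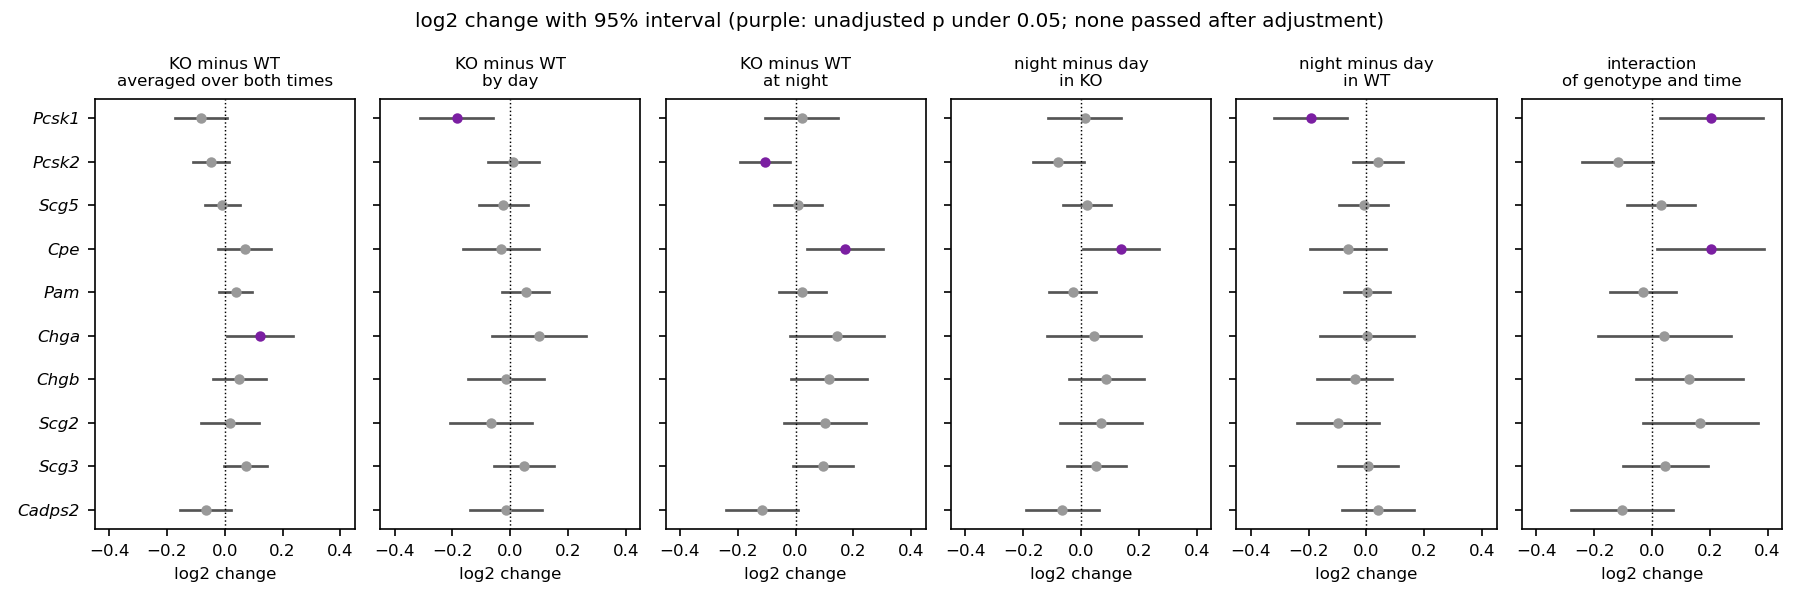
The log2 change of each of the 10 genes with its 95% interval in the 6 comparisons of the edgeR fit. Purple points mark an unadjusted p under 0.05; none passed after adjustment, and all intervals lie between -0.32 and 0.39.

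Pcsk1 encodes the convertase that makes the first cuts in many prohormones, and its level was highest in the WT_day group. Pcsk1 had 58.3, 68.6, 65.3, 60.8 and 75.3 CPM in the KO_night libraries and 66.8, 60.4, 67.6, 68.2 and 62.6 CPM in the KO_day libraries. In the WT libraries, Pcsk1 had 67.7, 64.4, 60.0, 66.8 and 64.8 CPM at night and 79.3, 78.3, 75.0, 69.5 and 67.8 CPM by day. The lowest WT_day library (67.8 CPM) lay above the highest WT_night library (67.7 CPM), and 4 of the 5 WT_day libraries lay above every KO_day library. Of all 22181 genes 5.32% likewise had no overlap between WT_night and WT_day, so 1 of 10 is not a result about these genes. For KO_night against WT_night, KO_day against WT_day and KO_night against KO_day 0 of the 10 genes were free of overlap, where 5.07%, 2.72% and 2.51% of all genes were. The mean was 65.1 ± 3.43 CPM in KO_day and 74.0 ± 5.16 CPM in WT_day (SD, n = 5 each), a log2 change of -0.18 ± 0.06 (SE) by day, with an edgeR adjusted p of 0.267. Night minus day in WT gave -0.19 ± 0.06, with 64.7 ± 2.97 CPM in WT_night and 74.0 ± 5.16 CPM in WT_day, with an adjusted p of 0.149. In KO the mean was 65.7 ± 6.71 CPM at night and 65.1 ± 3.43 CPM by day, with an interval of the log2 change from -0.11 to 0.14. The interaction was 0.21 ± 0.09 on the log2 scale, with an adjusted p of 0.168, and it was 0.14 without KO_night 5, the highest KO_night library.

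Of the 8 other settings tried and the 20 fits that each left out a library, none gave Pcsk1 an adjusted p under 0.05 or another direction in these comparisons. WT_day 1, which had the highest Pcsk1 level of all libraries, also had the highest sum of pituitary markers, and their part in the result was not tested. Without WT_day 1 the change was -0.15 by day (adjusted p 0.481) and -0.17 for night minus day in WT (adjusted p 0.266). When the library labelled WT_day 3 was left out instead, the values were -0.17 (adjusted p 0.452) and -0.18 (adjusted p 0.281).

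Pcsk2 encodes the second main convertase of neurons, which works later in the granule. Pcsk2 had 185, 202, 186, 191 and 200.2 CPM in the KO_night libraries and 198, 207, 214, 199 and 199.9 CPM in the KO_day libraries. In the WT libraries, Pcsk2 had 206, 205, 215, 200.0 and 212 CPM at night and 205, 206, 213, 192 and 194 CPM by day. The night groups overlapped, since KO_night 2 and 5, at 202 and 200.2 CPM, lay above WT_night 4 at 200.0 CPM, while KO_night 1, 3 and 4 lay below every WT_night library. At night the mean was 193 ± 7.93 CPM in KO and 208 ± 5.93 CPM in WT (SD, n = 5 each), a log2 change of -0.11 ± 0.04 with an edgeR adjusted p of 0.0923. Without WT_night 4 the adjusted p was 0.04999, just under the threshold. With the trend of each library with gene length removed, the direction turned, to 0.09 (adjusted p 0.2997). Pcsk2 is also the 1 gene of the 10 with large overlapping partners: the counts of its antisense genes Pcsk2os1 and Pcsk2os2 came to 11.2% and 19.5% of its own, and the strand setting of the counting is not given in the sources used here, so its value is uncertain.

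Scg5 encodes the chaperone and inhibitor of the convertase made by Pcsk2. Scg5 had 178, 185, 185, 162 and 181 CPM in the KO_night libraries and 173, 174, 174, 177 and 178 CPM in the KO_day libraries. In the WT libraries, Scg5 had 171, 173, 182, 184 and 175 CPM at night and 182, 180.2, 178, 175 and 175 CPM by day. Its group means lay close together, at 178, 175, 177 and 178 CPM in KO_night, KO_day, WT_night and WT_day, and its log2 changes in the 6 comparisons had intervals between -0.11 and 0.15. KO_night 4, at 162 CPM, was the lowest of the 20 libraries.

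Because one protein serves the other, their ratio was taken within each library, in which a library's depth cancels. The ratio of Pcsk2 to Scg5 counts was 1.04, 1.09, 1.01, 1.18 and 1.11 in the KO_night libraries and 1.15, 1.19, 1.23, 1.12 and 1.12 in the KO_day libraries. It was 1.21, 1.18, 1.18, 1.09 and 1.21 in the WT_night libraries and 1.12, 1.14, 1.20, 1.10 and 1.10 in the WT_day libraries. The KO_night values were mostly low and overlapped WT_night through KO_night 2, 4 and 5, which lay above WT_night 4. At night the geometric mean was 1.08 in KO and 1.17 in WT, a log2 difference of -0.11, with p = 0.0635 in a two-sided exact permutation test of 5 against 5 libraries, whose smallest possible p is 0.00794. Adjusted over the 4 comparisons of this ratio, that p was 0.159. Night minus day in KO gave -0.10 (exact permutation p = 0.0794, adjusted 0.159), KO minus WT by day 0.04 (exact permutation p = 0.302) and night minus day in WT 0.05 (exact permutation p = 0.191). The ratio needs no scaling for depth, but Pcsk2 is the longer gene by far, and with the length trend removed, an alternative chosen after seeing the data, the night difference turned to 0.04 (exact permutation p = 0.373, adjusted 0.762). Without the library labelled WT_day 3 the by-day difference was 0.06 and night minus day in WT was 0.07, neither past the threshold.

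Cpe encodes carboxypeptidase E, which removes the basic residues that the convertases leave. Cpe had 966, 1196, 1066, 938 and 1034 CPM in the KO_night libraries and 949, 848, 895, 1008 and 1021 CPM in the KO_day libraries. In the WT libraries, Cpe had 901, 932, 859, 984 and 942 CPM at night and 913, 927, 996, 992 and 1000.3 CPM by day. The highest values were in KO_night, where 3 of 5 libraries lay above every WT_night library, although KO_night 1 and 4 lay within the WT_night range. At night the mean was 1039.9 ± 101 CPM in KO and 924 ± 46.8 CPM in WT (SD, n = 5 each), a log2 change of 0.17 ± 0.06 with an edgeR adjusted p of 0.0742. Night minus day in KO was 0.14 ± 0.06 (adjusted p 0.254) and the interaction was 0.20 ± 0.09 (adjusted p 0.186).

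Without KO_night 2, which had the highest Cpe level and the second highest sum of pituitary markers, the changes were 0.11 at night, 0.08 for night minus day in KO and 0.13 for the interaction. The night change passed without WT_night 4 (adjusted p 0.0497), without KO_night 4 (0.20, adjusted p 0.0278) and with the length trend removed (0.27, adjusted p 0.0415). With the libraries grouped by the time entry of the labels instead of the title, it was 0.02 at night, night minus day in KO turned to -0.12, and the interaction turned to -0.09. Of the astrocyte list 2 of 8 rose at night and none fell, where 11.9% of all genes passed. The astrocyte sums overlapped, at 2636 to 2961 CPM in KO_night and 2441 to 2793 CPM in WT_night. None of the astrocyte markers was at 0, and their part in the result was not tested.

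Pam encodes the enzyme that amidates the end of peptides such as oxytocin and vasopressin. Pam had 418, 421, 436, 410.2 and 431 CPM in the KO_night libraries and 427, 429, 441, 449 and 412 CPM in the KO_day libraries. In the WT libraries, Pam had 409.8, 414, 404, 424 and 430.4 CPM at night and 422, 416, 430.2, 406 and 404 CPM by day. All 20 values lay within a factor of 1.11 of each other, and no comparison gave Pam an unadjusted p under 0.05. After removal of the length trend Pam passed at night, with a log2 change of 0.23 (edgeR adjusted p 0.0497), against 0.02 as fitted. The 0.23 is a difference from genes of similar length and not a higher level of Pam. Among all genes the median log2 change at night was -0.17 around 195 kb and -0.26 around 401 kb. Pam is named here after its values were seen.

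Among the granins, Chga encodes chromogranin A, an acidic protein of the granule core. Chga had 119, 119, 101, 119 and 96.3 CPM in the KO_night libraries and 119, 107, 93.8, 124 and 93.4 CPM in the KO_day libraries. Chga had 93.4, 95.9, 92.1, 111 and 109 CPM in the WT_night libraries and 103, 104, 94.4, 98.0 and 101 CPM in the WT_day libraries. Chga was the most variable of the 10 genes, and the genotypes overlapped at both times. Averaged over both times its log2 change was 0.12 ± 0.06, with an edgeR adjusted p of 0.226. The mean was 111 ± 11.3 CPM in KO_night and 107 ± 14.1 CPM in KO_day, against 100.2 ± 8.95 CPM in WT_night and 100.1 ± 3.97 CPM in WT_day (SD, n = 5 each). That change was 0.11 when the library labelled WT_day 3 was left out (adjusted p 0.289) and 0.06 without WT_night 1, 2 and 3 (adjusted p 0.801), libraries that an earlier analysis of these data had singled out.

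Chgb encodes chromogranin B, the related granule protein. Chgb had 116, 124, 120.1, 127 and 117 CPM in the KO_night libraries and 126, 104, 105, 123 and 111 CPM in the KO_day libraries. Chgb had 105, 109, 104, 128 and 113 CPM in the WT_night libraries and 128, 116, 109, 112 and 109.5 CPM in the WT_day libraries. Every KO_night library lay above 4 of the 5 WT_night libraries, and WT_night 4 had the highest value of all. The mean was 121 ± 4.64 CPM in KO_night and 112 ± 10.1 CPM in WT_night (SD, n = 5 each), with an interval of the log2 change from -0.02 to 0.25.

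Scg2 encodes secretogranin II, the precursor of the peptide secretoneurin. Scg2 had 509.6, 606, 588, 550.0 and 642 CPM in the KO_night libraries and 570.3, 501, 532, 616 and 541 CPM in the KO_day libraries. Scg2 had 526, 532, 480.4, 609 and 552 CPM in the WT_night libraries and 619, 597, 587, 563 and 524 CPM in the WT_day libraries. The highest library, KO_night 5 at 642 CPM, and the lowest, WT_night 3 at 480.4 CPM, were both from the night, and all groups overlapped. The interaction had an interval from -0.03 to 0.37 on the log2 scale.

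Scg3 encodes secretogranin III, which binds chromogranin A and anchors it to the granule membrane. Scg3 had 133, 152, 144, 128 and 142 CPM in the KO_night libraries and 141, 124, 135, 145 and 129.6 CPM in the KO_day libraries. Scg3 had 129, 129.9, 124, 139 and 132 CPM in the WT_night libraries and 131, 129, 131, 134 and 126 CPM in the WT_day libraries. The KO groups ranged more widely than the WT groups, and all groups overlapped. The interval of the night change, KO minus WT, was -0.01 to 0.20 on the log2 scale.

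Cadps2 encodes a protein that primes dense-core vesicles for release. Cadps2 had 161, 145, 147, 161 and 166 CPM in the KO_night libraries and 151, 187, 172, 148 and 158 CPM in the KO_day libraries. Cadps2 had 179, 173, 179, 153 and 163 CPM in the WT_night libraries and 169, 170.0, 164, 156 and 165 CPM in the WT_day libraries. At night the KO_night libraries lay between 145 and 166 CPM, and WT_night 1, 2 and 3 lay above all of them at 173 to 179 CPM. The log2 change at night was -0.12, with an edgeR adjusted p of 0.196, and -0.02 without WT_night 1, 2 and 3. With the length trend removed it turned to 0.16, with an adjusted p of 0.0397, which is again a difference from genes of similar length. Cadps2 too is named here after its values were seen.

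Across all genes the night comparison ran with gene length. At night 2649 genes passed, and among 2701 genes over 100 kb 11 rose and 840 fell, with a median log2 change of -0.18. Among 11788 genes under 20 kb 853 rose and 227 fell, with a median of 0.07, and between 20 and 100 kb 284 rose and 430 fell of 7660, with a median of -0.02. The 4 members over 100 kb (Pam, Pcsk2, Cadps2 and Cpe) had a median of -0.04, and the 3 under 20 kb (Scg2, Chgb and Chga) had a median of 0.11. Genes over 100 kb took 23.4% to 29.2% of the counts in the KO_night libraries (median 26.0%) and 25.3% to 31.8% in the WT_night libraries (median 28.8%). By day they took 24.4% to 29.0% in KO (median 28.0%) and 26.3% to 27.7% in WT (median 27.2%). As a description, Cpe, Pam, Pcsk2 and Cadps2 lay above the median of genes of their length at night.

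The number of genes that pass at night changed with the libraries kept and with the time labels. It was 122 without WT_night 3, 11 without WT_night 1, 2 and 3, and 4 with libraries grouped by the time entry. Leaving out WT_night 1, 2 and 3 kept only WT_night 4 and 5 in that group, which alone lowers the number that can pass. Those left out had been singled out in an earlier analysis of these data. Sums of marker lists overlapped between the night groups. The thalamus list summed to 444 to 553 CPM in KO_night (median 521) and 505 to 757 CPM in WT_night (median 644). Of its 6 markers 1 rose and 1 fell, where 11.9% of all genes passed. Of the oligodendrocyte list 3 of 8 rose and none fell, with 2179 to 2928 CPM in KO_night and 2015 to 2490 CPM in WT_night. In the neuron list 1 of 7 rose and in the cortex and hippocampus list 1 of 6 rose. In the microglia list 1 of 7 fell and in the choroid plexus list 1 of 6 fell. None passed in the hypothalamus, endothelium, pituitary and striatum lists. None of the thalamus and oligodendrocyte markers was at 0, and the part of these lists in the night results was not tested.

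**Figure D3:**
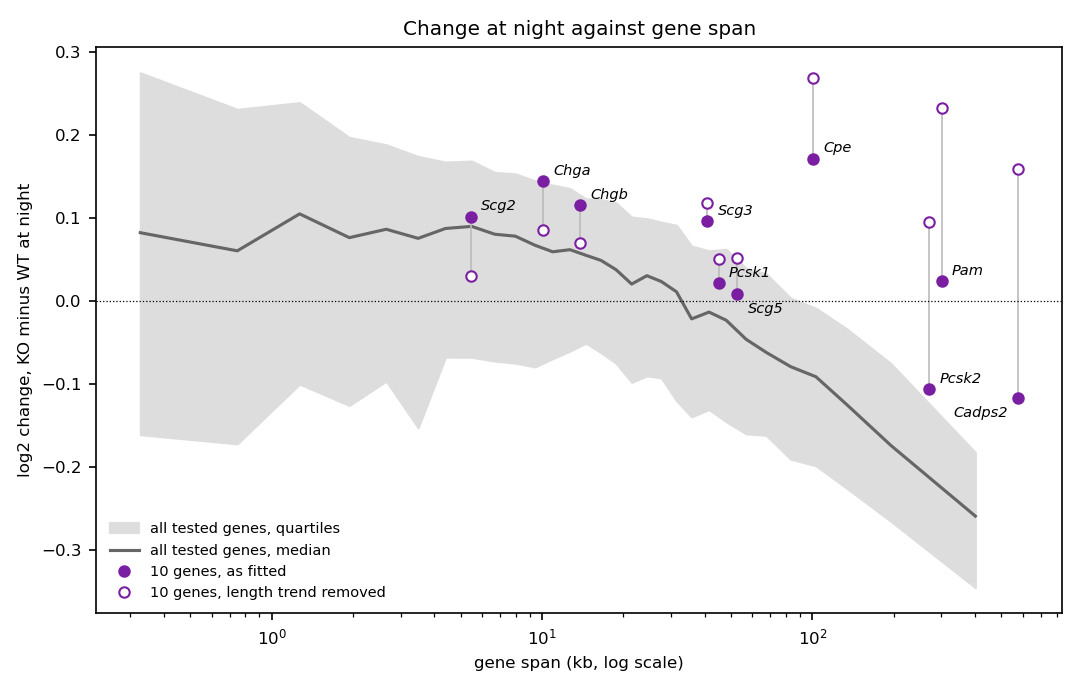
The log2 change at night, KO minus WT, against gene span in kb on a log axis, with the median (line) and quartiles (band) of all tested genes in bins of span, and the 10 genes as fitted (filled) and with the length trend removed (open). Pcsk2 and Cadps2 lie below 0 as fitted (-0.11 and -0.12) and above 0 after removal (0.09 and 0.16).

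Small differences between libraries were then used to ask which of the 10 genes vary together. For each of the 45 pairs, the log2 level of each library was taken after subtraction of its group mean, over 20 libraries, with p from 100000 permutations within groups and adjusted over the 45 pairs. The labels give no batch within which this could be repeated. In all, 11 pairs passed, 8 of them positive and 3 negative. How often pairs drawn from all genes vary this closely was not computed, so the count is not a result about these genes. The closest pair was Pcsk1 and Scg2, with Pearson r = 0.84 (adjusted permutation p 0.00135) and Spearman rho = 0.82 (adjusted permutation p 0.0054). It was 0.79 without the 2 libraries farthest from the median of Pcsk1 and 0.93 with the length trend removed. In each group the libraries high in Pcsk1 tended to be high in Scg2, as in KO_night, where replicate 5 was highest in both genes and replicate 1 lowest in both.

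**Figure D4:**
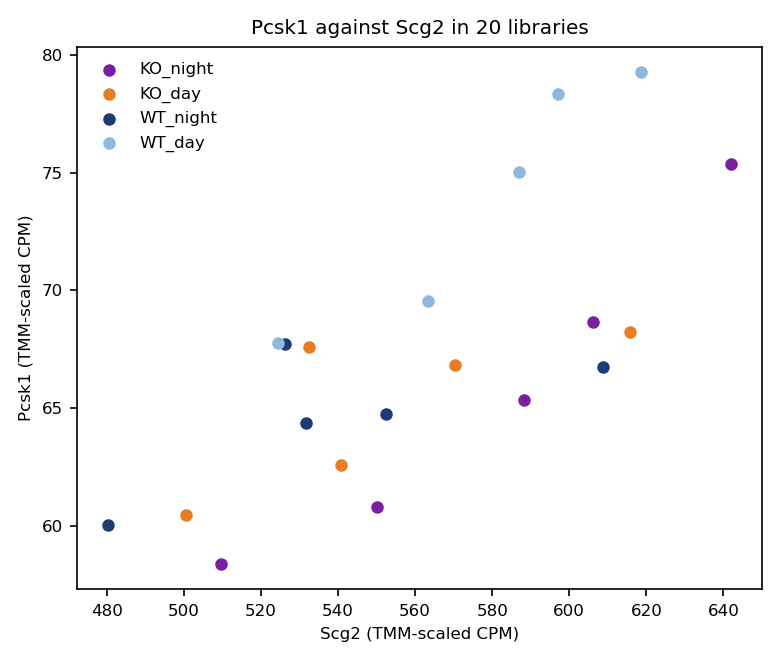
Pcsk1 against Scg2 in TMM-scaled CPM, 1 point per library, coloured by KO_night, KO_day, WT_night and WT_day. Within groups the points run upward (r = 0.84 about group means); 4 of the 5 WT_day points lie above every KO_day and WT_night point in Pcsk1.

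Scg2 also varied with Scg3 (r = 0.78, rho = 0.79, adjusted permutation p 0.00615 for r), with Chgb (r = 0.70, rho = 0.71, adjusted permutation p 0.0139 for r) and with Pam (r = 0.63, rho = 0.63, adjusted permutation p 0.0389 for r). Cpe varied with Scg3 (r = 0.76, rho = 0.66, adjusted permutation p 0.0179 for r), and Chga with Chgb (r = 0.68, rho = 0.68, adjusted permutation p 0.0237 for r). Pcsk1 varied with Scg3 (r = 0.62) and with Pam (r = 0.59), with adjusted permutation p-values of 0.0464 and 0.0416. For Pcsk1 and Scg3 the rank correlation did not pass (rho = 0.59, adjusted permutation p 0.0504). Without the 2 farthest libraries these r lay between 0.59 and 0.74, and with the length trend removed between 0.57 and 0.84. The convertases Pcsk1 and Pcsk2 were not a pair that passed (r = 0.44, rho = 0.46, adjusted permutation p 0.240 for r), nor were Pcsk2 and its chaperone gene Scg5 (r = 0.14, rho = 0.18, adjusted permutation p 0.734 for r).

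The negative pairs all held Cadps2, the longest of the 10 genes. It ran against Cpe (r = -0.79, rho = -0.78, adjusted permutation p 0.00615 for r), Scg3 (r = -0.77, rho = -0.74, adjusted permutation p 0.0107 for r) and Chgb (r = -0.65, rho = -0.72, adjusted permutation p 0.0409 for r). With the length trend removed all 3 turned positive, to 0.47, 0.57 and 0.27. The pairs of Pcsk2 moved in the same way, with r = -0.12 for Cpe and -0.01 for Scg3 as fitted and 0.79 and 0.88 after removal. The removal subtracts from each gene a term set by its length and the library. It can therefore itself raise r or turn its sign. No conclusion is drawn from r after removal, here or for the pairs above.

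**Figure D5:**
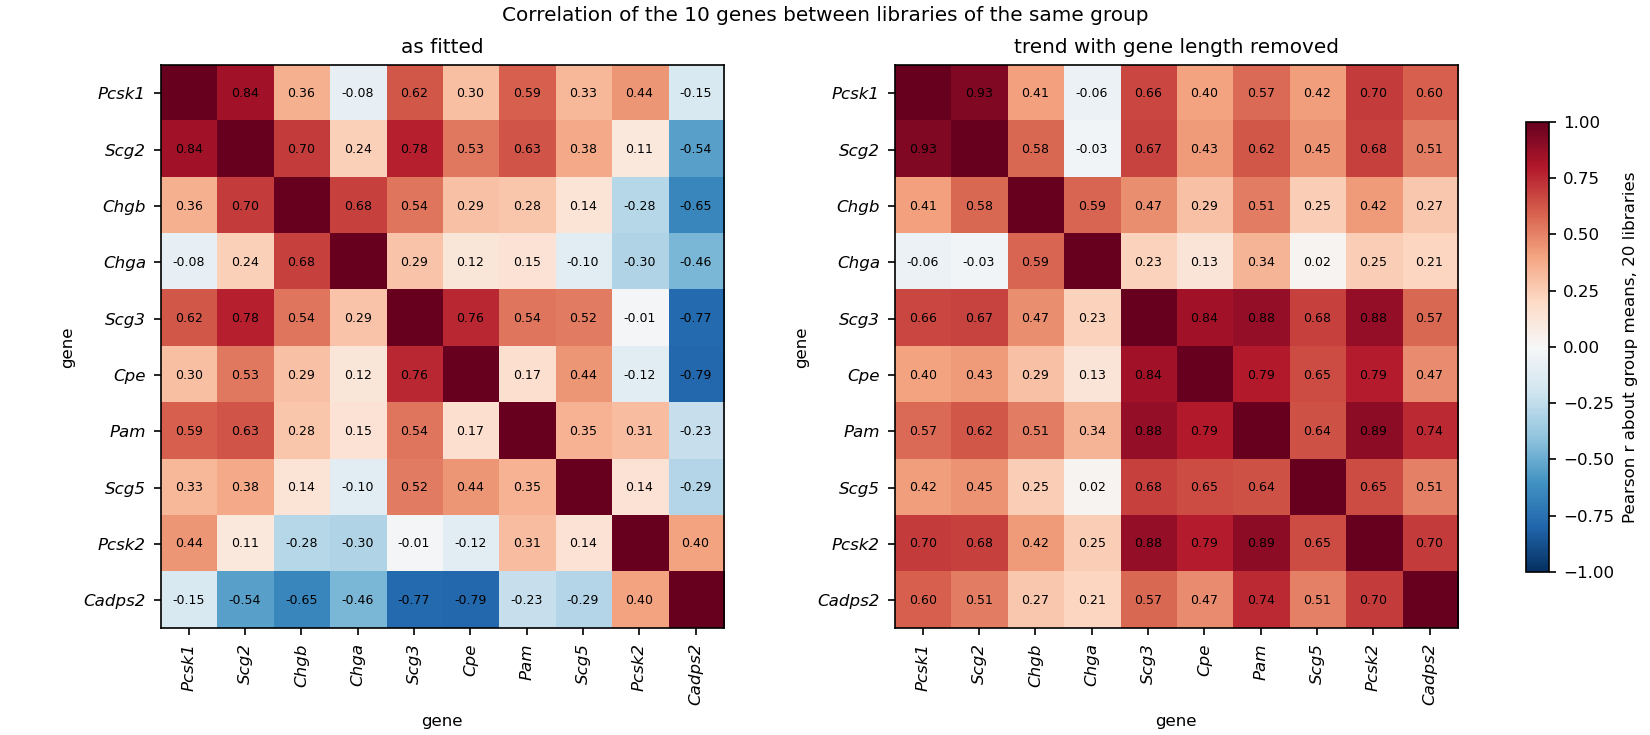
Pearson r of each pair of the 10 genes over 20 libraries about the group means, as fitted (left) and with the trend of each library with gene length removed (right), on a colour scale from -1 to 1. Cadps2 runs against Cpe (-0.79), Scg3 (-0.77) and Chgb (-0.65) on the left, and those squares are positive on the right.

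For each gene, the protein-coding gene whose pattern was most like it was sought among 14005 candidates, by Pearson r about the group means over 20 libraries, as a description. Pcsk1 was nearest to Ggps1, a geranylgeranyl diphosphate synthase (r = 0.90), Pcsk2 to Plekhg1, a gene of the thalamus marker list (0.82), Scg5 to Papss1 (0.88), Cpe to Prelid3b (0.92) and Pam to Glud1, a glutamate dehydrogenase (0.84). Chga was nearest to the transcription factor gene Tfcp2l1 (0.89), Chgb to Arhgdia (0.92), Scg2 to Tpbg (0.93), Scg3 to Ndrg3 (0.93) and Cadps2 to Plcxd3 (0.94). All points share libraries and scaling, and the nearest gene to Cadps2 spans 200.1 kb and that to Pcsk2 227 kb.

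In the wider granule and processing list 43 of 45 genes were tested. In the main edgeR fit none passed averaged over both times, by day, for night against day in either genotype or in the interaction. Genes at an unadjusted p under 0.05 numbered 12 averaged over both times (27.9%, all genes 19.6%), 3 by day (6.98%, all genes 9.62%), 9 for night against day in KO (20.9%, all genes 17.7%), 4 in WT (9.30%, all genes 15.9%) and 9 in the interaction (20.9%, all genes 22.1%). DESeq2 called 9 of them at night (4 rose and 5 fell), where it called 19.4% of all genes. Averaged over both times it called 5 (3 rose and 2 fell), against 6.32% of all genes. It called 0 by day (all genes 1.24%) and for night against day in WT (2.47%). It called 1, Pcsk5, for night against day in KO (all genes 4.02%) and in the interaction (8.03%). At night 3 rose and 3 fell in edgeR, which is 14% of the list and near the 11.9% of all genes, with a median log2 change of 0.06 (all genes 0.0051). Vti1a, whose product acts in granule formation at the Golgi, fell by 0.28 ± 0.07 (adjusted p 0.0236), and Rims2, of the release site, fell by 0.22 ± 0.06 (adjusted p 0.0251). Syt7, a calcium sensor of granule release, rose by 0.17 ± 0.05 (adjusted p 0.0382), and Hid1, of granule formation, rose by 0.16 ± 0.05 (adjusted p 0.0399). With the length trend removed Syt7 alone passed, at night and also averaged over both times. None passed at night without WT_night 1, 2 and 3 or with the time entry.

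The substrates of these enzymes are prohormones. The list read for them also held Bdnf and Igf1, which encode growth factors. Of 30 tested genes of 33 on the prohormone list, 4 rose and none fell at night in edgeR, which is 13.3% of the list and near the 11.9% of all genes, with a median log2 change of 0.17 (all genes 0.0051). Oxt, the oxytocin gene, rose by 0.76 ± 0.10 (adjusted p 0.000234), Avp, the vasopressin gene, by 0.45 ± 0.11 (adjusted p 0.0182), Crh, the releasing hormone of the stress axis, by 0.52 ± 0.15 (adjusted p 0.0323; by day -0.47 ± 0.15, adjusted p 0.241) and Npy, a feeding peptide, by 0.42 ± 0.14 (adjusted p 0.0472). Averaged over both times, 2 rose, which is 6.67% of the list, where 1.32% of all genes passed. These were Oxt, by 0.48 ± 0.07 (adjusted p 0.00083), and Avp, by 0.33 ± 0.07 (adjusted p 0.0320). In the main edgeR fit 0 of 30 passed by day, for night against day in KO or in WT, or in the interaction. At an unadjusted p under 0.05 were 3, 3, 9 and 4 of the 30, where 9.62%, 17.7%, 15.9% and 22.1% of all genes were. DESeq2 called 7 at night (6 rose and 1, Igf1, fell), where it called 19.4% of all genes. Averaged over both times it called 3, which all rose, against 6.32% of all genes. It called 0 by day (all genes 1.24%) and for night against day in KO (4.02%). It called 1 (Crh) for night against day in WT (all genes 2.47%) and 2 (Crh and Oxt) in the interaction (8.03%). With no filter on low counts edgeR also called Crh and Oxt in the interaction. The count of all genes under that setting is given below. At night none of the 30 passed with the time entry or without WT_night 1, 2 and 3, and Oxt and Avp alone passed with the length trend removed. Averaged over both times Oxt passed under every setting tried for this list. The fits that left out a single library were not read for this list.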

How the data were processed

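The authors sequenced rRNA-depleted total RNA of mouse hypothalamus as paired-end, strand-specific libraries, per the labels. The deposited files give raw counts for each gene, which the authors obtained with HISAT2 and featureCounts on mm10, per the submitters' processing notes; versions, annotation release and strand setting are not given in the sources used here. One deposited file has another column layout, so its unit was recorded as other, but it holds the same kind of counts. Of 53801 genes, 53706 matched GENCODE M21 (GRCm38) by identifier, and 37304 had a count.

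Library totals were 32066289 to 48697647 counts. Over all 190 pairs of libraries, chi-square per degree of freedom was 5.58 to 86.7, so no library was a copy of another. Counts were fitted with edgeR 4.0.16 in R 4.3.3 (quasi-likelihood F-test, TMM factors 0.945 to 1.08, filterByExpr with a minimum count of 10, 4 group means over all 20 libraries, 95% intervals). The p-values were adjusted by Benjamini-Hochberg over all 22181 tested genes, with a threshold of 0.05, and genes are said to have risen or fallen only below it. CPM values are counts per 1000000 of the TMM-scaled total. DESeq2 1.42.0, RLE size factors, no filter, the time entry of the labels, libraries with agreeing time labels, a replicate block, leaving out WT_night 1, 2 and 3, leaving out each library, and removal of each library's length trend (limma 3.58.1 loess, span 0.3, on log10 gene span, as offsets) were the alternatives. Applying them, other than leaving out each library, to the 2 gene lists, and removal of the length trend from the ratio, were chosen after seeing the data. Correlations used log2 CPM (prior count 2) about group means, and ratios used a pseudocount of 0.5, both in Python 3.11.15 with scipy 1.17.1. The edgeR fit was tested on simulated counts with known changes, and the permutation test of the ratio on a small made example. The other steps were not tested in this way.

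The genes, the lists and the tests were chosen with earlier results of these data known. A change is printed for a member with an unadjusted p under 0.05, and for each list up to 4 genes that passed by lowest p; Pam and Cadps2 at night were added after their values were seen. The title's first letter gave the time of day, except for KO_day 5, whose title lacks it and whose time entry was used. WT_day 5 carries a title number used by another library and was given the free number. Replicate numbers showed no sign of pairing: correlations of same-numbered deviations ran from -0.167 to 0.303. Such correlations cannot exclude that libraries were handled in numbered sets.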

Additional observations from a re-analysis of the deposited data

Results flagged for a closer look

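Among 44 sets of 5 values (each of the 10 genes and the Pcsk2 to Scg5 ratio in each group), 2 held a library whose gap to its nearest neighbour exceeded 0.71 of the range of its group. Chance alone gives about 1 such flag in 20 groups. Scg5 had 161.598 CPM in KO_night 4, against 178 to 185 CPM in the other KO_night libraries. The ratio of Pcsk2 to Scg5 was 1.08592 in WT_night 4, against 1.18 to 1.21 in the other WT_night libraries.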

How the results depend on the processing

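Of the 10 genes, 0 passed under all alternatives in 5 of the comparisons. At night 2 passed with DESeq2, where 19.4% of all genes with an adjusted p did. With the length trend removed 3 passed at night, and with 1 library left out 0 to 2 did. The counts of all genes under those settings are given below. Directions were followed over all settings only for members at an unadjusted p under 0.05, and for Pam and Cadps2 at night. Among these, the log2 change reversed at night with the length trend removed for Pcsk2 (0.0948) and Cadps2 (0.158). It also reversed for Pam at night without WT_night 1, 2 and 3 (-0.0139). With the time entry it reversed for Cpe in night minus day in KO (-0.123) and in the interaction (-0.0853). Other changes reversed too with the length trend removed. Among them were Pcsk2 (-0.0476 to 0.0505) and Cadps2 (-0.0654 to 0.0741) averaged over both times. With the time entry the log2 Pcsk2 to Scg5 ratio also reversed, to -0.0575 for KO minus WT by day and 0.0708 for night minus day in KO, and with the length trend removed to 0.0439 at night and -0.00767 for night minus day in WT. Leaving out 1 library gave ratios of -0.14 to -0.09 at night, 0.02 to 0.06 by day, -0.13 to -0.07 for night minus day in KO and 0.04 to 0.08 in WT. Causes were not tested.

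Counts of all genes that passed moved more. DESeq2 gave 1063 averaged over both times, 191 by day, 590 and 397 for night against day in KO and in WT, and 1236 for the interaction. No filter gave 60 by day, 70 and 108 for night against day in KO and in WT, and 105 for the interaction. The time entry gave 30 averaged, 149 by day, 4 at night, and 0 for night against day in KO and 0 in WT. Agreeing time labels gave 58 averaged, 89 by day, 6 at night and 104 for night against day in WT. That setting kept only KO_night 4 and 5 and KO_day 3, 4 and 5 in the KO groups. Fewer libraries alone lower the number that can pass. Without WT_night 1, 2 and 3 there were 19 averaged, 11 at night, 138 and 9 for night against day in KO and in WT, and 1 for the interaction. Removal of the length trend gave 59 by day, 1179 of 22181 at night, 98 for night against day in KO and 8 for the interaction. After that removal 3 of the 10 genes passed at night. Without WT_night 4, where 4355 of all genes passed at night, 2 of the 10 genes did. With the replicate block 48 passed by day and 1690 at night, none of them among the 10 genes. The numbers showed no sign of pairing, as 4 of 20 libraries correlated best with their own number. With 1 library left out, counts ran from 47 (without KO_night 3) to 1265 (without WT_night 4) averaged, 15 to 73 by day, 122 (without WT_night 3) to 4355 (without WT_night 4) at night, 0 to 328 and 9 to 179 for night against day in KO and in WT, and 0 to 1555 for the interaction.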
